A study of Mus musculus with 36 samples.

Results

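The genes described here are 6 genes of cellular iron handling that were listed by symbol: *Ftl1* and *Fth1*, which encode the light and heavy subunits of the iron store ferritin; *Tfrc*, the transferrin receptor, and *Slc11a2*, the divalent metal transporter DMT1, which bring iron into the cell; and *Ireb2* and *Aco1*, which encode the iron regulatory proteins IRP2 and IRP1. They were looked up by name, but the list was drawn up with earlier results of these data known. All 6 were found in each of the 3 count tables, among 25239 rows of the P-body and cytoplasm table, 25229 rows of the polysome table and 48440 rows of the Ago2 KO table, and all 6 passed the filter on low counts in every comparison.

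Ferritin is a hollow protein shell that stores iron in a non-toxic form, and the transferrin receptor takes up iron bound to serum transferrin by endocytosis, after which DMT1 carries iron out of the endosome. Cells set these activities largely after transcription. When iron is scarce, IRP1 and IRP2 bind a short stem-loop called the iron-responsive element (IRE). In the 5′ UTR of ferritin mRNA this blocks the start of translation, and in the 3′ UTR of *Tfrc* mRNA it slows decay. When iron is plentiful, IRP1 carries an iron-sulphur cluster and acts as cytosolic aconitase, and IRP2 is degraded. Processing bodies (P-bodies) are cytoplasmic RNA and protein granules that hold mRNAs that are not being translated, and the RNA helicase DDX6 is needed for them to form. Ferritin mRNA kept off ribosomes by IRPs is thus a well-known example of stored, untranslated mRNA.

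The study sorted P-bodies from mouse cells by the fluorescence of GFP-LSM14A, a tagged P-body protein expressed from an EF1a promoter in a lentiviral vector. Their RNA was sequenced beside aliquots of the cytoplasmic fraction taken before sorting. That fraction was a resuspended pellet of centrifuged lysate without nuclei, and the P-bodies were sorted from it. Cytoplasm here means this pellet, which still held the P-bodies, and not the soluble cytoplasm. The study compared the fractions to ask which mRNAs P-bodies hold in each cell type. It compared polysome-bound with total RNA to ask what changes in translation when DDX6 is removed. The 36 libraries fell into 16 groups. The P-body and cytoplasm groups, of 2 libraries each, came from embryonic stem (ES) cells, all derived from a C57BL/6 × 129S4Sv/Jae F1 line, and from fibroblasts. Naive ES cells were kept with LIF and inhibitors of MEK and GSK3. Primed ES cells were made from them with activin A and bFGF. Mouse embryonic fibroblasts (MEF-ctrl, here MEFs) came from embryos of OKSM mice, which carry an inducible reprogramming cassette. Cells of the same kind were taken at day 3 of reprogramming with a control shRNA (MEF-reprog-d3-ctrl, here day 3 control) or with an shRNA against *Nudt21* (MEF-reprog-d3-NudT21, here day 3 Nudt21 knockdown), a factor of alternative polyadenylation. Ago2 KO ES cells carry a paired CRISPR deletion in *Ago2*, which encodes an effector protein of microRNAs, and were grown from single sorted cells. The polysome and total RNA groups, of 3 libraries each, came from ES cells in which both copies of *Ddx6* carry an FKBP12 degron tag. These cells again came from a single-cell clone, which also expresses GFP-LSM14A. They were either untreated (control) or treated with dTAG-13 for a few hours to remove DDX6 (DDX6deg). Cycloheximide was added before harvest. All ribosome-containing gradient fractions were pooled, and this pool is called polysomes here. The study describes its P-body replicates as biologically independent samples and its polysome replicates as biological replicates, and each cytoplasm aliquot as the presort fraction of its P-body sample, but the labels do not say which libraries were prepared together, and the p-values below measure the spread between these libraries.

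Total counts per library ranged from 6769727 to 31185799 in the P-body and cytoplasm table, from 15624342 to 17486206 in the Ago2 KO table and from 13308776 to 29362187 in the polysome table. *Nudt21* stood at 4.87 to 5.94 CPM (counts scaled to a common library size) in the 4 knockdown libraries against 88.9 to 109.8 in the 4 day 3 control libraries, and *Ago2* at 2.54 to 4.83 in the 4 Ago2 KO libraries. The DDX6 degron acts on the protein, so *Ddx6* mRNA does not check those labels. Summed over 3 pluripotency genes, MEF libraries stood at 0.15 to 0.268 CPM with *Utf1* at 0, and over 6 naive genes the naive libraries stood at 1458 to 1977 against 92.3 to 126 in primed libraries. The 7 fibroblast genes summed to 11685 to 11876 in MEF P-bodies and 37934 to 42232 in MEF cytoplasm. In the MEF P-body libraries 4 lung epithelium markers summed to 6.57 and 96.0 CPM, and all 4 were at 0 in MEF cytoplasm. In the Ago2 KO cytoplasm libraries the 10 most abundant genes took 25.0% and 41.6% of all counts, against 13.0% and 17.8% in the Ago2 KO P-body libraries, with the ribosomal gene *Rn18s-rs5* alone at 24.0% of replicate 2. Control total RNA replicate 3 stood apart from replicates 1 and 2, its chi-square over genes, divided by its degrees of freedom, being 12.3 and 11.3 against 2.82 between those 2, and control polysome replicate 3 did so at 7.01 and 7.73 against 2.58. On the same measure the naive cytoplasm pair stood at 29.9 and the day 3 control P-body pair at 52.1, both further apart. Also above 12.3 were the pairs of MEF P-bodies, day 3 Nudt21 knockdown P-bodies, Ago2 KO P-bodies and Ago2 KO cytoplasm. The part of these differences in the results was not tested. Results that use naive cytoplasm, MEF P-bodies, P-bodies of day 3 cells, Ago2 KO cells, control polysomes or control total RNA rest on such libraries.

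The IRE is the sequence that names these genes, and it is shown to let the mRNAs be compared at the site that the IRPs bind. The search was for C, then any 5 bases, then the loop CAGTG followed by A, C or T, then any 5 bases, on the transcript strand and with all 5 upper-stem positions able to pair (Watson-Crick or G-U), in the UTRs of the GENCODE M21 annotation of GRCm38 (mm10). Windows of 29 bases are printed 5′ to 3′ as DNA, and capitals mark the 6-base loop.
Ftl1, 5′ UTR, chr7:45459779-45459807, minus strand: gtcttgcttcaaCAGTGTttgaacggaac
Fth1, 5′ UTR, chr19:9982732-9982760, plus strand: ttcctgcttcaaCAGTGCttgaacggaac
Tfrc, 3′ UTR, chr16:32631219-32631247, plus strand: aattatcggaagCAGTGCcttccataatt
Tfrc, 3′ UTR, chr16:32631598-32631626, plus strand: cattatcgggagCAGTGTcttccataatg
Tfrc, 3′ UTR, chr16:32631663-32631691, plus strand: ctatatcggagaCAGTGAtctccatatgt
Tfrc, 3′ UTR, chr16:32631710-32631738, plus strand: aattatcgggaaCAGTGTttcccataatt

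The 2 ferritin windows were identical at 26 of 29 bases. The 4 *Tfrc* windows lie within one 3′ UTR. A match in a 5′ UTR was found in 23 of 20916 genes (0.11%) and in a 3′ UTR in 100 of 21045 genes (0.475%). Of the other genes of iron handling, *Slc40a1*, the iron exporter ferroportin, also had a match in the 5′ UTR and is returned to below.
Slc40a1, 5′ UTR, chr1:45925465-45925493, minus strand: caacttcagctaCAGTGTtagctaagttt

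This pattern was not found in the annotated UTRs of *Slc11a2*, *Ireb2* or *Aco1*. *Slc11a2* was nevertheless listed as carrying an IRE, and elements that depart from the pattern were not searched for. The windows are in 1 of 2 coding transcripts of *Ftl1*, 4 of 5 of *Fth1* and 1 of 3 of *Tfrc*. The longest coding transcripts also differ in length and base composition. *Ftl1* (chr7:45457944-45459884) has 968 bases with 58.1% GC and *Fth1* (chr19:9980598-9985098) 1494 bases with 53.6% GC, while *Tfrc* (chr16:32608920-32632794) has 4890 bases with 39.8% GC and *Ireb2* (chr9:54863789-54912530) 5770 bases with 39.0% GC. *Aco1* (chr4:40143081-40198338) has 3832 bases with 52.1% GC and *Slc11a2* (chr15:100387898-100425072) 4415 bases with 50.4% GC. Among 21877 genes *Ireb2* and *Tfrc* were at the 7.38th and 9.86th percentiles of GC content and *Ftl1* at the 90.4th.

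Expressed per kilobase of exon, which makes genes comparable, *Ftl1* had the highest level of the 6 genes and *Fth1* the second highest in all 16 groups. In naive cytoplasm *Ftl1* stood at 5992 ± 157 CPM per kilobase (SD, n = 2) and *Fth1* at 235 ± 3.09, followed by *Tfrc* at 31.4 ± 5.17, *Aco1* at 27.0 ± 2.08, *Ireb2* at 13.0 ± 3.62 and *Slc11a2* at 7.06 ± 1.16. *Tfrc* and *Aco1* did not differ there beyond their spread. In MEF cytoplasm the ferritin genes stood at 3807 ± 76.5 and 432 ± 14.9 CPM per kilobase, and the order of the rest was *Aco1* (28.4 ± 0.388), *Ireb2* (22.3 ± 0.334), *Tfrc* (20.6 ± 0.450) and *Slc11a2* (6.78 ± 0.538). In control total RNA *Tfrc*, at 65.8 ± 8.04 CPM per kilobase (n = 3), stood above *Ireb2* at 41.4 ± 3.96, and *Slc11a2* was the lowest at 5.46 ± 0.268. *Ftl1* was the most abundant gene of all in both primed P-body libraries, with 0.827% and 0.823% of counts, and its share was 0.638% and 0.700% in the naive cytoplasm pair, where it also ranked first. Reads of *Ftl1* and *Fth1* can be shared with their pseudogene copies, so their absolute levels are uncertain.

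Comparisons of fractions are given as the log2 ratio of P-body to cytoplasm, with its standard error (SE), from edgeR's quasi-likelihood test with p-values adjusted by Benjamini-Hochberg over all genes tested and a threshold of 0.05. In naive ES cells 2 of the 6 genes were higher in P-bodies and 2 lower, where 22.6% and 15.4% of all 15630 genes tested were. In primed ES cells it was again 2 higher and 2 lower, where 26.5% and 24.2% of all genes were, and in MEFs 2 higher and 3 lower, where 26.6% and 28.7% were. None of the 6 was called in day 3 control cells (0.196% of all genes higher and 0.45% lower), in day 3 Nudt21 knockdown cells (9.04% and 12.8%) or in Ago2 KO cells (5.47% and 1.05%). The Ago2 KO count table holds no wild-type libraries, and the labels do not give its library protocol. The part of *Ago2* loss in the Ago2 KO results was not tested. The median log2 ratio of the 6 genes was −0.05 in naive ES cells, 0.03 in primed ES cells and −0.49 in MEFs, beside −0.06, 0.00 and 0.03 over all genes tested. The 6 genes thus did not move as a group, and which of them were held in P-bodies differed from one cell type to the next.

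**Figure D1:**
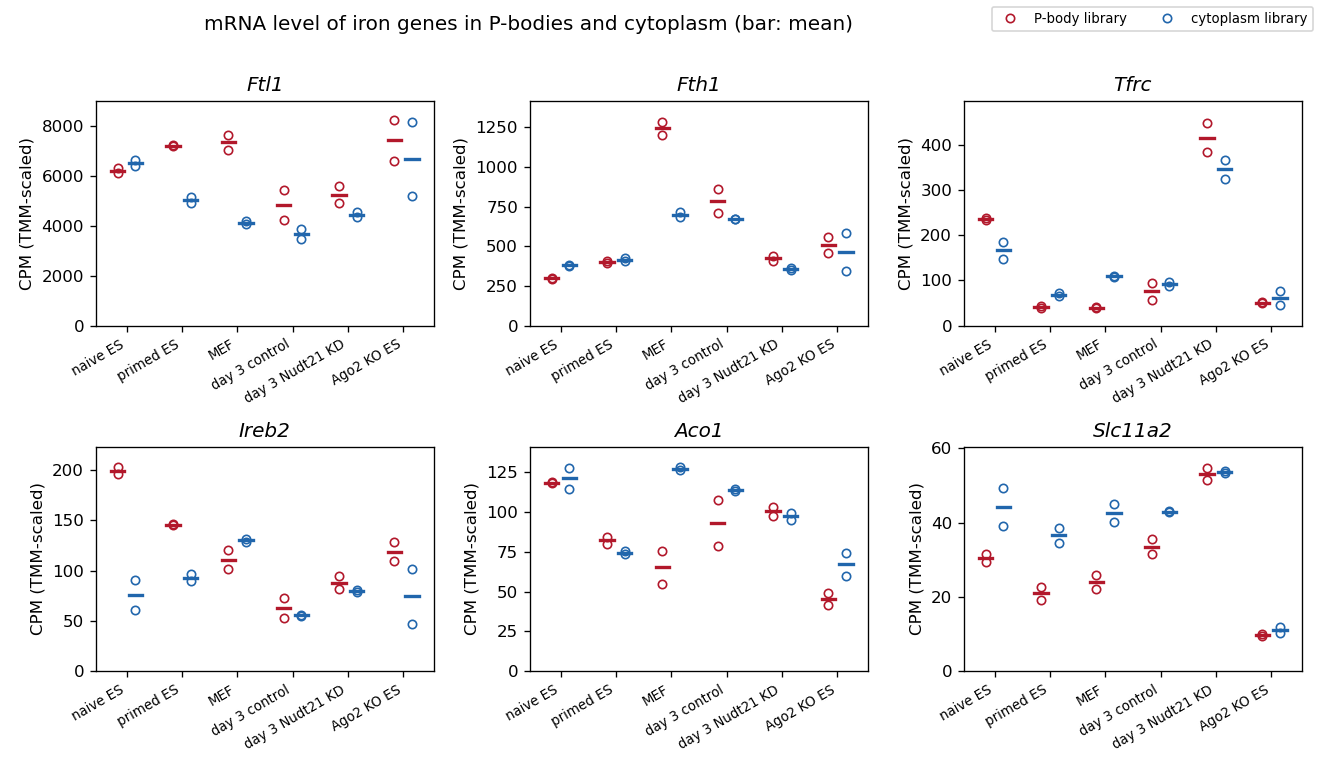
mRNA level of each gene (y axis, CPM scaled by TMM over the whole table, from 0) in P-body and cytoplasm libraries of each cell type (x axis). Each circle is 1 library and each bar the mean of 2; Ago2 KO levels are from a separately made table. *Tfrc* is highest in the day 3 Nudt21 knockdown, at a mean of 416 CPM in P-bodies and 346 in cytoplasm, and *Ftl1* P-body circles lie above cytoplasm circles in primed ES cells and MEFs.

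*Ftl1* mRNA was higher in P-bodies than in cytoplasm in primed ES cells and MEFs and did not pass the test in naive ES cells. *Ftl1* stood at 8385 and 8323 CPM in the primed P-body libraries against 5796 and 6035 in primed cytoplasm, and in MEFs at 6215 and 6956 against 3626 and 3554. The fractions did not overlap in either cell type. The log2 ratio was 0.50 ± 0.03 in primed ES cells (edgeR adjusted p = 5.12e-08), which is 1.41-fold, and 0.88 ± 0.07 in MEFs (adjusted p = 1.46e-05), which is 1.83-fold. In naive ES cells *Ftl1* P-body levels were 5803 and 6019 CPM and cytoplasm levels 6077 and 6306. There the P-body libraries were the lower ones, without overlap, and the log2 ratio of −0.07 ± 0.09 did not pass the test (adjusted p = 0.572), although without naive cytoplasm replicate 1 it was −0.09 (adjusted p = 0.00115).

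*Fth1*, the subunit with the ferroxidase site that oxidises iron for storage, followed *Ftl1* in MEFs and departed from it in primed ES cells. In MEFs it reached 1061 and 1166 CPM in P-bodies against 619 and 594 in cytoplasm, a log2 ratio of 0.88 ± 0.08 (edgeR adjusted p = 2.33e-05). In primed ES cells its P-body levels were 474 and 457 CPM and its cytoplasm levels 499 and 475. These fractions lay side by side without overlap, and the log2 ratio of −0.06 ± 0.05 did not pass the test (adjusted p = 0.310). In naive ES cells *Fth1* was lower in P-bodies, at 281 and 283 CPM against 365 and 359, a log2 ratio of −0.36 ± 0.09 (adjusted p = 0.0313). That call was lost under DESeq2 (adjusted p = 0.0666) and when either naive P-body library was left out (adjusted p = 0.364 and 0.351).

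In day 3 control cells *Ftl1* stood at 4202 and 5845 CPM in P-bodies against 3481 and 3882 in cytoplasm, and *Fth1* at 705 and 921 against 671 and 669.7. The P-body libraries were the higher ones for both genes but stood far from each other. The log2 ratios of 0.45 ± 0.16 for *Ftl1* (edgeR adjusted p = 0.166) and 0.28 ± 0.14 for *Fth1* (adjusted p = 0.288) did not pass the test. *Ftl1* passed it under DESeq2 (adjusted p = 0.0492), without the filter on low counts (0.0375) and with all groups in one fit (0.0149). The log2 ratios moved when 1 day 3 control P-body library was left out. Without replicate 1 they were 0.67 for *Ftl1*, 0.46 for *Fth1*, −0.59 for *Tfrc*, −0.43 for *Aco1* and −0.34 for *Slc11a2*. Without replicate 2 they were 0.19 for *Ftl1* and 0.38 for *Ireb2*. Such a fit, here and elsewhere, assumes that the lone library of a group varies as those of the other groups do.

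With *Nudt21* knocked down neither ferritin gene passed the test in P-bodies. *Ftl1* stood at 4946 and 5625 CPM in P-bodies against 4345 and 4712, with a log2 ratio of 0.22 ± 0.09 (edgeR adjusted p = 0.0921), and *Fth1* at 445 and 409 CPM against 352 and 377, with 0.23 ± 0.09 (adjusted p = 0.0946). The fractions did not overlap for either gene. *Ftl1* was called without the filter on low counts (adjusted p = 0.00778) and with the replicate block (0.0272), as was *Tfrc* (0.0316 and 0.0444). Without knockdown P-body replicate 1 *Ftl1* was called at 0.31 (adjusted p = 7.72e-04), and without replicate 2 *Fth1* at 0.29, *Tfrc* at 0.37 and *Ireb2* at 0.24 (adjusted p = 0.00542, 3.90e-04 and 0.0496). In Ago2 KO cells *Ftl1* was at 8258 and 6624 CPM in P-bodies and 8159.7 and 5214 in cytoplasm, and *Fth1* at 556 and 457 and at 583 and 341. The fractions overlapped for both genes, and the log2 ratios were 0.15 ± 0.35 (adjusted p = 0.834) and 0.13 ± 0.34 (adjusted p = 0.853). The lower cytoplasm value of each gene was in replicate 2, the library in which *Rn18s-rs5* took 24.0% of counts.

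The transferrin receptor went the other way from ferritin between cell types. *Tfrc* was the gene most strongly depleted from MEF P-bodies among the 6, at 35.7 and 35.0 CPM against 92.8 and 96.5 in cytoplasm. The fractions were far apart, with a log2 ratio of −1.42 ± 0.10 (edgeR adjusted p = 5.68e-06), so that cytoplasm stood 2.68-fold higher. In primed ES cells it was also lower in P-bodies, at 51.2 and 44.1 CPM against 85.0 and 75.6, a log2 ratio of −0.75 ± 0.10 (adjusted p = 4.35e-05). In naive ES cells it was higher in P-bodies, at 226 and 223 CPM against 177 and 139.7. The log2 ratio there was 0.51 ± 0.14 (adjusted p = 0.0373). The naive call was lost on library totals, at a log2 ratio of 0.29 (adjusted p = 0.106), and without either naive P-body library (adjusted p = 0.235 and 0.220), while the primed and MEF calls held in every setting run.

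*Tfrc* stood at 93.6 and 61.2 CPM in day 3 control P-bodies and at 95.8 and 88.6 in cytoplasm, fractions that overlapped, with a log2 ratio of −0.25 ± 0.21 (edgeR adjusted p = 0.5). In the Nudt21 knockdown it reached 452 and 385 CPM in P-bodies against 366 and 336. These fractions did not overlap, and the log2 ratio of 0.25 ± 0.10 did not pass the test (adjusted p = 0.0970). In Ago2 KO cells the P-body levels were 50.3 and 51.2 CPM and the cytoplasm levels 44.8 and 75.6, which overlapped, with a log2 ratio of −0.25 ± 0.29 (adjusted p = 0.656). Without Ago2 KO cytoplasm replicate 1 the *Tfrc* ratio was −0.69 (adjusted p = 0.00956).

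*Slc11a2*, which carries iron across the endosomal membrane, was lower in P-bodies in all 3 of naive ES cells, primed ES cells and MEFs. It stood at 30.1 and 27.8 CPM in naive P-bodies against 47.0 and 37.2 in cytoplasm, at 22.3 and 26.3 against 45.5 and 40.3 in primed ES cells, and at 22.8 and 20.1 against 38.8 and 35.0 in MEFs. The fractions did not overlap in any of them. The log2 ratios were −0.54 ± 0.16 (edgeR adjusted p = 0.0472), −0.82 ± 0.12 (adjusted p = 9.75e-05) and −0.78 ± 0.12 (adjusted p = 4.80e-04). The naive call was lost under DESeq2 (adjusted p = 0.0632) and without either naive P-body library (adjusted p = 0.228 and 0.314). In day 3 control, Nudt21 knockdown and Ago2 KO cells the log2 ratios were −0.32 ± 0.14, −0.03 ± 0.10 and −0.20 ± 0.26, and none passed the test (adjusted p = 0.216, 0.888 and 0.701).

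The mRNAs of the 2 iron regulatory proteins were held differently. *Ireb2* was the gene most enriched in naive P-bodies among the 6, at 192 and 187 CPM against 58.0 and 86.4 in cytoplasm. The fractions did not overlap, and the log2 ratio was 1.39 ± 0.20 (edgeR adjusted p = 0.00468), which is 2.63-fold. In primed ES cells *Ireb2* stood at 169 and 168 CPM against 114 and 105, a log2 ratio of 0.63 ± 0.07 (adjusted p = 8.43e-06). In MEFs its P-body levels were 106 and 91.8 CPM and its cytoplasm levels 111 and 115. The MEF P-body libraries were the lower ones, and the log2 ratio of −0.19 ± 0.10 did not pass the test (adjusted p = 0.134), although without MEF P-body replicate 1 it was −0.29 (adjusted p = 0.00635).

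*Ireb2* stood at 71.8 and 56.1 CPM in day 3 control P-bodies against 55.4 and 54.9, and at 95.1 and 82.1 against 81.0 and 81.1 in the Nudt21 knockdown. The P-body libraries were the higher ones in both, by log2 ratios of 0.21 ± 0.16 (edgeR adjusted p = 0.449) and 0.13 ± 0.10 (adjusted p = 0.424) that did not pass the test. In Ago2 KO cells it stood at 109.5 and 128 CPM against 47.2 and 101, without overlap. The log2 ratio of 0.68 ± 0.36 did not pass the test (adjusted p = 0.281), and without Ago2 KO cytoplasm replicate 2 it was 1.30 (adjusted p = 0.00248). With the replicate number as a block it was 0.77 (adjusted p = 0.00858), in libraries whose same-numbered fractions deviated together at a correlation of 0.60.

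*Aco1* stood at 113 and 112 CPM in naive P-bodies and 122 and 109 in cytoplasm, which overlapped (log2 ratio −0.03 ± 0.11, edgeR adjusted p = 0.824). In primed ES cells it stood at 97.9 and 92.4 CPM against 86.3 and 88.2, with a log2 ratio of 0.12 ± 0.08 that did not pass the test (adjusted p = 0.197). In MEFs it was lower in P-bodies, at 66.6 and 49.7 CPM against 111 and 110.0, a log2 ratio of −0.93 ± 0.13 (adjusted p = 3.16e-04). In MEFs it was therefore *Aco1* and not *Ireb2* that was called. In day 3 control, Nudt21 knockdown and Ago2 KO cells the log2 ratios were −0.25 ± 0.15, 0.03 ± 0.09 and −0.57 ± 0.24, and none passed the test (adjusted p = 0.338, 0.845 and 0.194). Without Ago2 KO cytoplasm replicate 1 the last was −0.83 (adjusted p = 0.00475), and with the replicate block it was −0.57 (adjusted p = 0.0469).

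**Figure D2:**
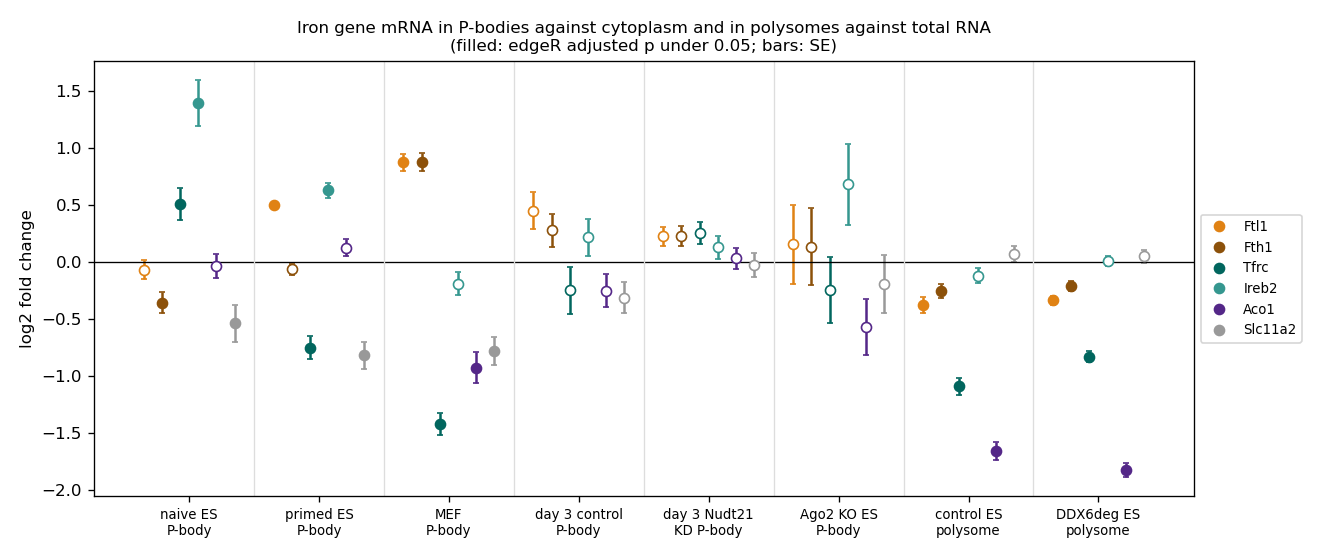
Log2 fold change (y axis) of each gene in P-bodies against cytoplasm for 6 cell types and in polysomes against total RNA for 2 conditions (x axis). Points are the edgeR estimates and bars the SE; filled points passed an adjusted p of 0.05. In MEFs *Ftl1* and *Fth1* both sit at 0.88 and *Tfrc* at −1.42, in naive ES cells *Ireb2* sits at 1.39, and in both polysome comparisons *Aco1* is the lowest point, at −1.66 and −1.82.

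Differences between cell types were tested in one fit of the 4 groups concerned, as the P-body log2 ratio of one cell type minus that of the other. Between naive and primed ES cells 3 of the 6 genes differed, where 25.3% of all 17199 genes tested did. *Ftl1* was 0.70 ± 0.08 lower on the log2 scale in naive ES cells (difference −0.70, edgeR adjusted p = 7.51e-04) and *Tfrc* 1.12 ± 0.18 higher (adjusted p = 0.00275). The *Fth1* difference of −0.43 ± 0.10 (adjusted p = 0.0152) was lost without the filter on low counts (0.0665), with all groups in one fit (0.123) and when any one of the naive P-body, primed P-body or primed cytoplasm libraries was left out (0.0619 to 0.186). For *Ireb2* the difference of 0.62 ± 0.23 did not pass the test (adjusted p = 0.0742), but it did under DESeq2, filterByExpr, no filter and all groups in one fit, and it was 0.36 and 0.95 (adjusted p = 0.00700 and 9.03e-07) without naive cytoplasm replicate 1 or 2. *Aco1* (−0.30 ± 0.13) and *Slc11a2* (0.14 ± 0.21) did not pass either (adjusted p = 0.123 and 0.678), but *Aco1* was at −0.37 (adjusted p = 0.00950) without naive cytoplasm replicate 2.

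Between naive ES cells and MEFs 5 of the 6 genes differed, where 41.3% of all 18143 genes did. The ferritin genes were less enriched in naive P-bodies, by −1.13 ± 0.12 for *Ftl1* (edgeR adjusted p = 7.57e-05) and −1.42 ± 0.13 for *Fth1* (adjusted p = 3.01e-05), where the median over all genes was −0.17. *Tfrc* (1.74 ± 0.17, adjusted p = 3.67e-05), *Ireb2* (1.39 ± 0.24, adjusted p = 0.00126) and *Aco1* (0.71 ± 0.19, adjusted p = 0.0153) were more enriched. The *Aco1* difference was lost without either naive P-body library (adjusted p = 0.0612 and 0.0645), and *Slc11a2* did not pass (0.05 ± 0.21, adjusted p = 0.919). This comparison shares the naive libraries with the one before.

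After 3 days of reprogramming 1 of the 6 genes, *Tfrc*, differed from MEFs in P-body enrichment, where 14.7% of all 17488 genes did. Its difference was 1.21 ± 0.24 (edgeR adjusted p = 0.00986), from a log2 ratio of −1.42 in MEFs to −0.25 in day 3 control cells. It was lost without MEF cytoplasm replicate 1 (adjusted p = 0.0502) or either day 3 control cytoplasm library (0.0738 and 0.107). The ferritin differences of −0.38 ± 0.20 for *Ftl1* and −0.56 ± 0.18 for *Fth1* did not pass the test (adjusted p = 0.228 and 0.0635), nor did *Ireb2* (0.45 ± 0.19, adjusted p = 0.143), *Aco1* (0.72 ± 0.22, adjusted p = 0.0505) or *Slc11a2* (0.51 ± 0.19, adjusted p = 0.104). *Fth1* and *Aco1* did pass under DESeq2, without the filter and with all groups in one fit, and *Ftl1* in the last 2 of these. Without day 3 control P-body replicate 2 the differences were −0.67 for *Ftl1*, −0.79 for *Fth1*, 0.59 for *Ireb2*, 0.84 for *Aco1* and 0.51 for *Slc11a2*. Without replicate 1 the *Fth1* difference was −0.45. Without MEF P-body replicate 1 the *Aco1* difference was 0.94. The MEF libraries are shared with the comparison of naive ES cells and MEFs. Between the Nudt21 knockdown and the day 3 control none of the 6 differed, where 0.0118% of all 16973 genes did, 2 genes. The *Tfrc* difference was 0.53 ± 0.25 (adjusted p = 0.894), and 0.88 (adjusted p = 0.00360) without day 3 control P-body replicate 1, where *Ftl1* (−0.41) and *Aco1* (0.50) were called too (adjusted p = 0.0363 and 0.0266). Here 819 genes were at an unadjusted p under 0.05, and DESeq2 called 26.

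**Figure D3:**
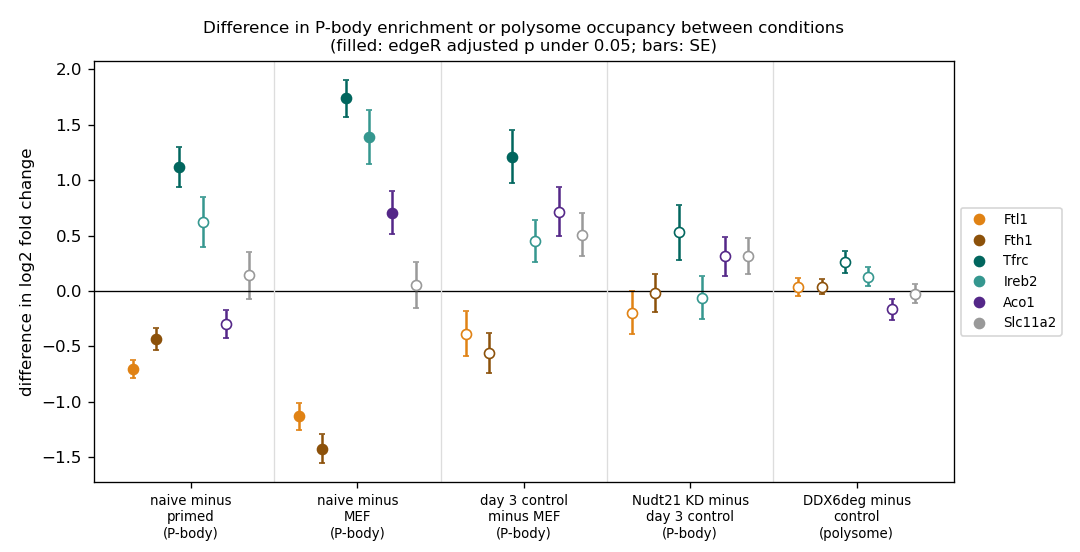
Difference in P-body log2 ratio between 2 cell types, or in polysome log2 ratio between DDX6deg and control (y axis), for each gene and pair of conditions (x axis). Points are edgeR estimates and bars the SE; filled points passed an adjusted p of 0.05. *Ftl1* and *Fth1* lie below 0 and *Tfrc* above 0 in both pairs with naive ES cells, at −1.42 for *Fth1* and 1.74 for *Tfrc* against MEFs, and no point is filled for the last 2 pairs.

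Ribosome occupancy was read as the log2 ratio of polysome-bound to total RNA. In control ES cells 4 of the 6 genes were lower in polysomes, where 24.1% of all 15411 genes were, and none was higher, where 18.8% were. The same 4 genes, *Ftl1*, *Fth1*, *Tfrc* and *Aco1*, were lower in DDX6deg cells, where 26.8% of all 15638 genes were lower and 24% higher. The median log2 ratio of the 6 genes was −0.32 in control and −0.28 in DDX6deg cells, beside 0.02 over all genes in both. The 4 control calls held without any one control library, replicate 3 of either fraction included.

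*Aco1* had the lowest occupancy of the 6. It stood at 24.0, 26.1 and 27.9 CPM in control polysomes against 77.5, 87.6 and 81.3 in total RNA, and at 26.3, 23.5 and 24.8 against 93.2, 83.9 and 86.6 in DDX6deg cells. The fractions were far apart in both conditions. The log2 ratios were −1.66 ± 0.08 (edgeR adjusted p = 3.34e-11) and −1.82 ± 0.06 (adjusted p = 3.61e-17), at the 1.67th and 1.32nd percentiles of all genes tested. *Tfrc* stood at 159, 162 and 171 CPM in control polysomes against 377, 368 and 303, and at 144, 144 and 158 against 273, 254 and 265 in DDX6deg cells. Again the fractions did not overlap. Its log2 ratios were −1.09 ± 0.08 (adjusted p = 7.39e-09) and −0.83 ± 0.05 (adjusted p = 5.42e-13).

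Ferritin mRNA was lower in polysomes by less. *Ftl1* stood at 3124, 3146 and 3353 CPM in control polysomes against 3929.9, 3987 and 4577, and at 3398, 3621 and 3528 against 4512, 4588 and 4238 in DDX6deg cells, with log2 ratios of −0.38 ± 0.07 (edgeR adjusted p = 3.07e-04) and −0.34 ± 0.04 (adjusted p = 4.58e-07). *Fth1* stood at 388, 412 and 434 CPM against 485, 488 and 500.2, and at 450.3, 480.2 and 479.8 against 559, 546 and 531, with log2 ratios of −0.26 ± 0.06 (adjusted p = 0.00293) and −0.21 ± 0.04 (adjusted p = 1.80e-04). For both genes every polysome library lay below every total RNA library. When libraries were scaled by their totals instead of by TMM, the median of all genes moved from 0.02 to 0.19 in control and to 0.21 in DDX6deg cells, and *Fth1* no longer passed, at −0.09 (adjusted p = 0.213) and −0.03 (adjusted p = 0.554). *Ftl1* passed on that scale at smaller ratios, −0.21 (adjusted p = 0.00613) and −0.15 (adjusted p = 0.00150).

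*Ireb2* and *Slc11a2* did not pass the test in either condition. *Ireb2* stood at 227, 218 and 224 CPM in control polysomes and 262, 245 and 219.9 in total RNA, which overlapped, with a log2 ratio of −0.12 ± 0.07 (edgeR adjusted p = 0.183), and without control total RNA replicate 3 it was −0.18 (adjusted p = 0.00733). In DDX6deg cells its log2 ratio was 0.01 ± 0.05 (adjusted p = 0.865). *Slc11a2* had log2 ratios of 0.07 ± 0.07 (adjusted p = 0.488) and 0.05 ± 0.06 (adjusted p = 0.539). On library totals *Slc11a2* was called higher in polysomes in both conditions, at 0.24 (adjusted p = 0.0121) and 0.23 (adjusted p = 0.00217), and *Ireb2* in DDX6deg cells at 0.19 (adjusted p = 7.12e-04).

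**Figure D4:**
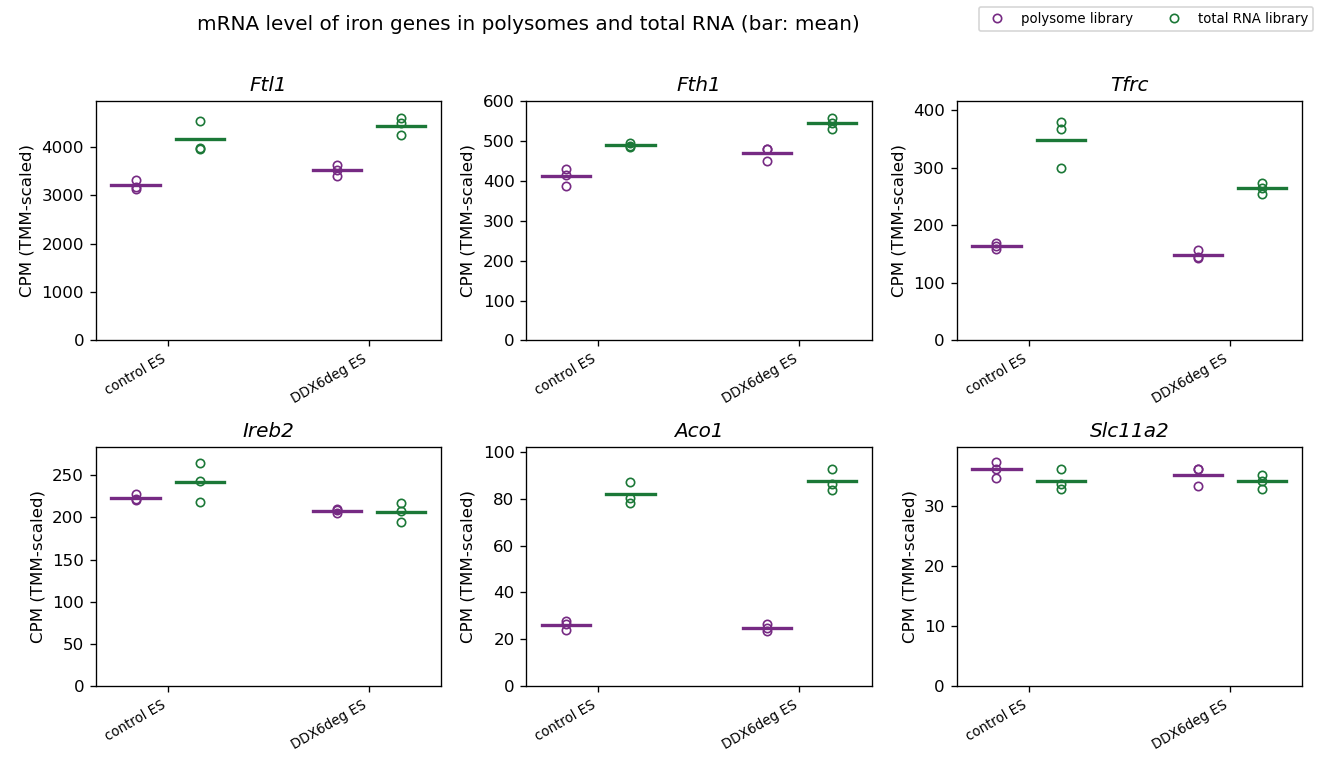
mRNA level of each gene (y axis, CPM scaled by TMM over the table, from 0) in polysome and total RNA libraries of control and DDX6deg ES cells (x axis). Each circle is 1 library and each bar the mean of 3. *Aco1* has a mean of 26.0 CPM in control polysomes against 82.0 in total RNA, *Tfrc* 164 against 349, and *Ireb2* and *Slc11a2* circles overlap between the fractions in control cells.

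After a few hours of DDX6 removal no change in the occupancy of the 6 genes was detected. By edgeR 0 of 16345 genes (0%) differed between DDX6deg and control in their log2 ratio, with 844 at an unadjusted p under 0.05, and DESeq2 called 4. The largest differences among the 6 were 0.26 ± 0.10 for *Tfrc* (edgeR adjusted p = 0.879) and −0.17 ± 0.10 for *Aco1* (adjusted p = 0.879). Without control total RNA replicate 3, the library with the lowest *Tfrc* level of its group, the *Tfrc* difference was 0.36 (adjusted p = 0.0339). In total RNA *Tfrc* stood at 256, 239 and 249 CPM in DDX6deg cells against 356, 346 and 286 in control cells, without overlap. It fell by 0.41 ± 0.07 on the log2 scale (log2 ratio −0.41, adjusted p = 0.0136), the only one of the 6 called, where 3.31% of all 15380 genes were. The call was lost without any one of the 3 DDX6deg libraries or control replicates 1 or 2 (adjusted p = 0.0527 to 0.100). *Ireb2* did not pass at −0.24 ± 0.07 (adjusted p = 0.0722), but it did under DESeq2, without the filter and with all groups in one fit, and *Fth1* at 0.14 ± 0.05 did not (adjusted p = 0.109). Without control replicate 3 *Ftl1* (0.16), *Fth1* (0.15) and *Ireb2* (−0.31) were called as well (adjusted p = 0.00917, 0.0106 and 5.77e-04).

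The level of these mRNAs in cytoplasm also differed between cell types, the background against which P-body ratios are read; in such bulk samples fewer cells of a type and less RNA per cell cannot be told apart. The strongest difference in level came with *Nudt21* knockdown at day 3, where all 6 genes were called, beside 49.6% of all 15990 genes. *Tfrc* stood at 366 and 334 CPM against 97.2 and 89.3 in the day 3 control, far apart, and rose by 1.91 ± 0.07 on the log2 scale (edgeR adjusted p = 1.65e-12). That is 3.75-fold, at the 96.4th percentile of all genes. *Fth1* fell, from 681 and 675 CPM to 351 and 375 (−0.90 ± 0.06, adjusted p = 1.19e-09), while *Ftl1* rose from 3531 and 3915 to 4341 and 4686 (0.28 ± 0.05, adjusted p = 3.26e-04). The 2 ferritin subunits thus went in opposite directions. *Ireb2* rose by 0.53 ± 0.08 (adjusted p = 1.83e-05), *Slc11a2* rose by 0.32 ± 0.09 (adjusted p = 0.00467), and *Aco1* fell by 0.22 ± 0.07 (−0.22, adjusted p = 0.0130). With all groups in one fit *Ftl1* (adjusted p = 0.0634), *Aco1* (0.280) and *Slc11a2* (0.104) were lost and the other 3 kept, and *Aco1* was also lost without day 3 control replicate 1 (0.0652). Cell type markers moved in these libraries too. The 3 pluripotency genes summed to 704 to 800 CPM in knockdown cytoplasm against 320 to 331 in the control, the 7 fibroblast genes to 1625 to 1632 against 5281 to 5433, and the 5 macrophage genes to 99.0 to 104 against 11.9 to 15.9, with 1 of the 5 over 1 CPM and *Adgre1* at 0 in the knockdown. The 7 erythroid genes summed to 14.8 to 15.0 against 6.72 to 7.89, with 1 of the 7 over 1 CPM. Their part in the level changes was not tested.

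From MEFs to day 3 of reprogramming with the control shRNA, 2 of the 6 genes were called, where 69.3% of all 16108 genes were. *Ireb2* stood at 52.7 and 52.2 CPM against 117 and 120.4 in MEFs and fell by 1.18 ± 0.07 on the log2 scale (log2 ratio −1.18, edgeR adjusted p = 2.76e-10). *Tfrc* stood at 91.2 and 84.2 CPM against 97.5 and 101, with a log2 ratio of −0.18 ± 0.07 (adjusted p = 0.0278) that was lost with all groups in one fit, on library totals and without MEF replicate 2 or day 3 control replicate 2 (0.0593 and 0.196). The ferritin genes did not pass, with log2 ratios of −0.11 ± 0.05 for *Ftl1* and 0.00 ± 0.05 for *Fth1* (adjusted p = 0.0825 and 0.983). *Ftl1* was called without MEF replicate 2 (−0.15, adjusted p = 0.00248), without day 3 control replicate 2 (−0.19, adjusted p = 0.0409) and without the filter (0.0408). On library totals, where the median of all genes moved from 0.04 to 0.20, *Fth1* (0.16) and *Slc11a2* (0.23) were called (adjusted p = 0.00781 and 0.0249).

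Between naive ES cells and MEFs the ferritin subunits again differed in opposite directions in cytoplasm, and 4 of the 6 genes were called, where 71.8% of all 16871 genes were. *Fth1* was higher in MEFs, at 673 and 642 CPM against 361 and 355 (0.88 ± 0.10, edgeR adjusted p = 9.07e-04), and *Ftl1* lower, at 3945 and 3842 against 6010.2 and 6246 (−0.65 ± 0.11, adjusted p = 0.00342). *Ireb2* was higher at 121 and 124 CPM against 57.4 and 85.6 (0.78 ± 0.20, adjusted p = 0.0176), and *Tfrc* lower at 101 and 104 against 175 and 138 (−0.61 ± 0.14, adjusted p = 0.0122). None of these groups overlapped. This comparison shares its MEF libraries with the one before and its naive libraries with the next. The *Ftl1*, *Tfrc* and *Ireb2* calls were lost without either MEF cytoplasm library (adjusted p = 0.0752 to 0.104), and *Ireb2* also on library totals (0.0835), where the median of all genes moved from 0.01 to −0.24.

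In primed against naive cytoplasm 3 of the 6 genes were lower and none higher, where 43.8% of all 16125 genes were called. *Tfrc* stood at 80.6 and 71.2 CPM against 204 and 162 (−1.27 ± 0.16, edgeR adjusted p = 0.00222) and *Aco1* at 81.8 and 83.1 against 141 and 126 (−0.69 ± 0.12, adjusted p = 0.00675). *Ftl1* stood at 5493 and 5685 against 7029 and 7301, with a log2 ratio of −0.36 ± 0.10 (adjusted p = 0.0359) that was lost under DESeq2 and on library totals. The groups did not overlap for these 3 genes. Without either primed cytoplasm library *Ftl1* (adjusted p = 0.440 and 0.390) and *Aco1* (0.0990 and 0.0908) were lost. *Fth1* (0.14 ± 0.10), *Ireb2* (0.30 ± 0.21) and *Slc11a2* (−0.27 ± 0.17) did not pass (adjusted p = 0.327, 0.274 and 0.259). Without naive cytoplasm replicate 2 *Ireb2* (0.64) and *Slc11a2* (−0.41) were called (adjusted p = 1.89e-04 and 0.0164), and on library totals *Fth1* was (0.34, adjusted p = 0.0401).

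**Figure D5:**
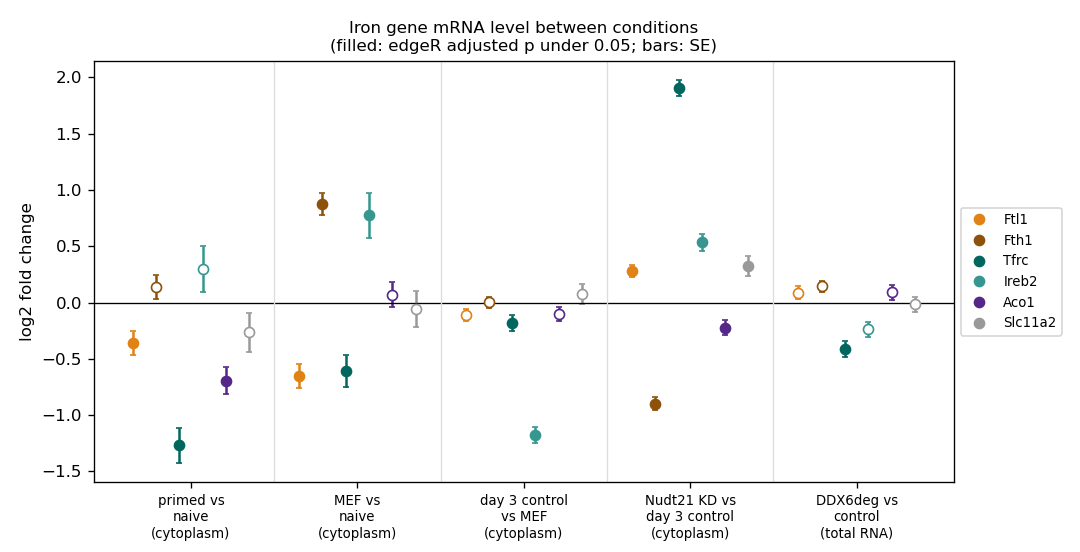
Log2 fold change (y axis) of each gene in cytoplasm between cell types or conditions, and in total RNA between DDX6deg and control (x axis). Points are edgeR estimates and bars the SE; filled points passed an adjusted p of 0.05. *Tfrc* sits at 1.91 with *Nudt21* knockdown and at −1.27 in primed against naive ES cells, and *Fth1* and *Ftl1* lie on opposite sides of 0 in MEFs against naive ES cells (0.88 and −0.65) and with *Nudt21* knockdown (−0.90 and 0.28).

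The other genes of iron handling were read from a list of 63, by role. In naive P-bodies 8 of 55 tested were higher and 11 lower (22.6% and 15.4% of all genes tested were), with a median log2 ratio of −0.15 beside −0.06 over all genes, and in primed P-bodies 14 of 58 were higher and 24 lower (26.5% and 24.2% of all genes were), with a median of −0.13 beside 0.00. *Ncoa4*, the receptor that delivers ferritin to lysosomes for iron release, had the largest ratio in naive ES cells, 1.90 ± 0.13 (edgeR adjusted p = 5.10e-04), at a mean of 453 CPM in P-bodies against 122 in cytoplasm. In primed ES cells its ratio was 1.30 ± 0.06 (adjusted p = 5.22e-09), and in MEFs −0.06 ± 0.09, which did not pass (adjusted p = 0.608). *Fbxl5*, the iron-sensing ubiquitin ligase subunit that marks IRP2 for degradation, had ratios of 0.74 ± 0.10 in naive (adjusted p = 0.00359) and 0.57 ± 0.07 in primed ES cells (adjusted p = 1.92e-05) and −0.02 ± 0.12 in MEFs (adjusted p = 0.905). The other genes of IRP control on the list, the iron chaperones *Pcbp1* and *Pcbp2*, went differently. *Pcbp1* had ratios of −0.63 ± 0.14 in naive ES cells, 0.16 ± 0.11 in primed ES cells and 0.39 ± 0.10 in MEFs (adjusted p = 0.02, 0.242 and 0.00796), and *Pcbp2* had 0.35 ± 0.15, 0.59 ± 0.11 and 0.66 ± 0.10 (adjusted p = 0.129, 5.73e-04 and 3.79e-04). *Ncoa4*, *Fbxl5*, *Pcbp1* and *Pcbp2* were named after their values were seen, except the 2 ES cell ratios of *Ncoa4*.

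Of the iron uptake genes of the list 2 of 6 tested were higher and 2 lower in naive P-bodies, 1 of 7 higher and 6 lower in primed P-bodies (where 26.5% of all genes were higher and 24.2% lower), and 1 of 8 higher and 4 lower in MEF P-bodies. *Steap3*, the endosomal ferrireductase that acts with transferrin uptake, had ratios of −1.55 ± 0.31 in naive (edgeR adjusted p = 0.0142) and −2.55 ± 0.14 in primed ES cells (adjusted p = 1.54e-08). *Lrp1*, a large endocytic receptor, had −1.37 ± 0.15 in naive ES cells, −1.80 ± 0.09 in MEFs, −1.15 ± 0.10 in day 3 control cells, −1.13 ± 0.09 in the Nudt21 knockdown and −1.82 ± 0.34 in Ago2 KO cells (adjusted p = 0.00213, 2.53e-06, 0.0495, 9.96e-05 and 0.0162). It was the only list gene called in day 3 control cells (1 of 59 tested) and in Ago2 KO cells (1 of 49), and on library totals no gene at all was called in day 3 control cells, *Lrp1* included. Of the other genes listed as carrying an IRE, *Cdc14a*, *Epas1* and *Bdh2* had no match in the search above. Among the listed genes the rule for named genes chose *Cdc14a*, a cell cycle phosphatase, at 1.69 ± 0.32 in naive and 1.03 ± 0.21 in primed ES cells (adjusted p = 0.0122 and 0.00140). It also chose *Epas1*, the hypoxia factor HIF-2α, at −2.14 ± 0.14 in primed ES cells (adjusted p = 7.14e-08).

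In MEF P-bodies 29 of 57 list genes tested were higher and 13 lower (26.6% and 28.7% of all genes were), with a median of 0.35 beside 0.03 over all genes. Of the mitochondrial iron and iron-sulphur cluster genes 16 of 20 were higher and 2 lower, and of the heme genes 8 of 12 were higher and 2 lower, with medians of 0.68 and 0.69. *Bola3*, a factor of iron-sulphur cluster delivery, had the largest ratio, 1.51 ± 0.13 (edgeR adjusted p = 1.49e-05), then *Bdh2*, an enzyme of mammalian siderophore synthesis, at 1.29 ± 0.18 (adjusted p = 3.04e-04). The iron and zinc transporter *Slc39a14* was lower, at −1.29 ± 0.11 (adjusted p = 1.75e-05). In the Nudt21 knockdown 11 of 58 were higher and 7 lower (9.04% and 12.8% of all genes were), with a median of 0.16 beside 0.00, led by *Blvra*, which reduces biliverdin, at 0.61 ± 0.10 (adjusted p = 0.00300), and *Isca2*, an iron-sulphur assembly factor, at 0.50 ± 0.13 (adjusted p = 0.0252). There *Bmp6*, the ligand that raises hepcidin, was at −0.88 ± 0.18 (adjusted p = 0.00845). These gene lists were drawn up with results of these data known, and a share of calls on a list was not tested against other lists.

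*Slc40a1*, with the 5′ UTR window printed above and named after its values were seen, took another course from the ferritin genes. It was low in naive ES cells, at means of 2.23 CPM in P-bodies and 0.81 in cytoplasm (1.45 ± 0.43, edgeR adjusted p = 0.0463). It stood at means of 90.4 CPM in primed P-bodies and 111 in primed cytoplasm (−0.30 ± 0.08, adjusted p = 0.00617), and at 3.35 against 12.7 CPM in MEFs (−1.93 ± 0.24, adjusted p = 1.22e-04). In MEFs, then, a 5′ UTR match was found both in mRNAs that were higher (*Ftl1*, *Fth1*) and in one that was lower in P-bodies.

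On polysomes 12 of 54 list genes were higher and 14 lower in control cells (18.8% and 24.1% of all genes were), with a median of 0.01 beside 0.02 over all genes, and 15 of 56 were higher and 17 lower in DDX6deg cells (24% and 26.8% of all genes were), with a median of 0.05 beside 0.02. *Alas1*, the first enzyme of heme synthesis, was low in polysomes at −1.36 ± 0.09 in control and −1.67 ± 0.08 in DDX6deg cells (edgeR adjusted p = 4.41e-09 and 9.74e-15). *Ncoa4* was at −1.13 ± 0.08 and −1.09 ± 0.05 (adjusted p = 3.91e-09 and 1.55e-14). The highest ratios were those of *Glrx5* (0.52 ± 0.08, adjusted p = 5.48e-05) and *Hscb* (0.48 ± 0.11, adjusted p = 0.00217) in control cells, both of iron-sulphur cluster assembly. In DDX6deg cells they were those of the mitochondrial iron importer *Slc25a37* (0.54 ± 0.06, adjusted p = 1.04e-07) and of *Isca1* (0.41 ± 0.05, adjusted p = 1.95e-07).

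P-body ratios moved with base composition and length across genes, and the 6 genes span both ranges. Over the genes with a transcript model, Spearman's rho between the log2 ratio and GC content was −0.63 in naive ES cells, −0.39 in primed ES cells and −0.05 in MEFs, and with transcript length it was 0.23, −0.03 and −0.49. These are descriptions across genes of the same libraries. The GC-poor *Ireb2* and *Tfrc* were the 2 genes higher in naive P-bodies, but in primed ES cells *Tfrc* was lower (−0.75) and the GC-rich *Ftl1* higher (0.50). In MEFs the short *Ftl1* and *Fth1* were higher, while *Ireb2*, the longest of the 6, did not pass the test (−0.19). The part of composition and length in the gene ratios was not tested.

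The profile of each gene over the 10 P-body and cytoplasm groups was compared with those of 10261 genes, as the mean absolute difference of log2(CPM + 1) values after each was centred on its own mean. The nearest gene to *Ireb2* was *Fbxl5*, at a mean difference of 0.132, with *Bivm* and *Tbc1d23* almost as near, each at 0.134. The nearest to *Ftl1* was *Cbwd1* (0.12), to *Fth1* *Pdcl3* (0.11), to *Aco1* *Tbcd* (0.11) and to *Slc11a2* *Rpn2* (0.13). No gene came as near to *Tfrc*, whose nearest was *Tbc1d24* at 0.36, followed by *Ago2* at 0.42 and *Tnpo1* at 0.43.

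The split of calls into higher and lower over all genes moved with scaling in some comparisons. On library totals, the naive P-body calls were 2876 higher and 4055 lower against 3528 and 2413 by TMM, with the median of all genes at −0.28. The control polysome calls were 5167 higher and 2751 lower against 2891 and 3719, the DDX6deg polysome calls 6133 and 2994 against 3759 and 4193, and the primed against naive cytoplasm calls 4349 and 2664 against 3487 and 3569. With all groups in one fit the day 3 control P-body calls were 1358 higher and 1950 lower against 31 and 71, and the naive minus primed differences 2422 and 1271 against 2389 and 1960. The day 3 control minus MEF differences were 1677 and 898 by TMM, 1294 and 1143 on library totals, and 1866 and 1545 with all groups in one fit.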

How the data were processed

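RNA was measured in 36 libraries: P-body and cytoplasmic fractions of 6 cell types in 2 libraries each, and polysome-bound and total RNA of 2 conditions in 3 each. For the P-body and cytoplasm table the authors mapped reads with hisat2 to mm10 and deposited featureCounts counts per refGene gene, of which 17.6% to 25.7% of values per library were not whole numbers. The polysome and Ago2 KO tables hold estimated counts that the authors took from salmon in the nf-core RNA-seq pipeline, with 5.05% to 6.19% and 11.6% to 13.1% not whole. All counts were therefore treated as estimated counts and rounded. The authors' tables of their own comparisons (log2 fold changes, adjusted p-values) were not used. The Ago2 KO table has other gene identifiers, so its levels were not compared with the others. Duplicate libraries were looked for with a chi-square test per replicate pair: chi-square per degree of freedom was 1.82 to 334 over 24 pairs, so no pair agreed within sampling noise.

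The members and the gene lists were chosen with earlier results of these data known. A gene was tested where its reads in the fitted libraries came to 10 or more, with edgeR 4.0.16 (R 4.3.3; TMM, glmQLFit, glmQLFTest, two-sided), Benjamini-Hochberg adjusted over all genes, threshold 0.05. The libraries of the groups compared entered each of the 18 fits, 8 between fractions, 5 of differences between conditions (interaction contrasts over 4 groups) and 5 of levels. CPM beside a ratio are on the TMM scale of that fit; other CPM are on the scale of the whole table. Alternatives were DESeq2 1.42.0, DESeq2 size factors in edgeR, filterByExpr, no filter, a replicate block, all groups in one fit, each library left out in turn and, chosen after seeing the data, library totals. A run of edgeR on simulated counts with known changes checked only the bias of the median fold change. It used a fixed spread for all genes, so it does not show how the test performs on these libraries. List genes were named as the 2 called genes with the largest ratio in each direction among those with a mean of at least 10 CPM. IREs were searched with Python 3.11.15 in GENCODE M21. Depth limits precision most at low levels, such as those of *Slc11a2*, and every group has only 2 or 3 libraries. Some results of listed genes are not reported here.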

Additional observations from a re-analysis of the deposited data

Results flagged for a closer look

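In 9 cases the P-body ratio of a gene differed between 2 cell types by the test of the difference itself (edgeR, interaction contrast). Naive minus primed ES cells gave −0.70 for *Ftl1* (adjusted p = 7.51e-04), −0.43 for *Fth1* (0.0152) and 1.12 for *Tfrc* (0.00275). Naive ES cells minus MEFs gave −1.13 for *Ftl1* (7.57e-05), −1.42 for *Fth1* (3.01e-05), 1.74 for *Tfrc* (3.67e-05), 1.39 for *Ireb2* (0.00126) and 0.71 for *Aco1* (0.0153). Day 3 control cells minus MEFs gave 1.21 for *Tfrc* (0.00986). The directions of *Tfrc* were opposite in naive ES cells and in MEFs, with ratios of 0.51 and −1.42. With 2 or 3 libraries a group, no gene's values were screened for a single outlying library.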

How the results depend on the processing

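Of 744 fold changes of the 6 genes under other settings, 693 stayed on their side of the threshold. A call was lost in 17 and gained in 34. With 1 library left out the numbers were 539, 35 and 38 of 612. No fold change that was called in either fit changed sign. Some that were called in neither fit did, such as *Ireb2* in control polysomes, from −0.12 to 0.05 on library totals. In naive P-bodies 2 of the 6 genes were called under DESeq2. Day 3 control P-bodies had 2105 called genes under DESeq2, 202 under filterByExpr, 1940 without a filter, 0 on library totals (3769 at an unadjusted p under 0.05 in edgeR) and 3308 with all groups in one fit, against 102, and 1 of the 6 genes was called under DESeq2, without a filter and with all groups. All groups in one fit gave 5128 genes for primed P-bodies, 2100 for Nudt21 knockdown P-bodies, 4877 (3 of the 6) for the knockdown in cytoplasm, and 1 of the 6 for day 3 control against MEF cytoplasm. Without a filter 2 of the 6 were called in knockdown P-bodies. Ago2 KO P-bodies had 1731 genes under DESeq2, 716 with its size factors and 2643 without a filter, against 1095. Day 3 control minus MEF had 3 of the 6 called under DESeq2, 4 without a filter, 2 on library totals and 4 with all groups. The knockdown minus control difference had 26 and 62 genes, and the DDX6deg occupancy difference 4 and 16, under DESeq2 and without a filter. DDX6deg total RNA had 832, 863 and 1138 genes under DESeq2, without a filter and with all groups, each with 2 of the 6.

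With a replicate block, 802 genes were called in day 3 control P-bodies, 4178 (2 of the 6) in Ago2 KO P-bodies, 1 in the knockdown minus control difference, 6 in the DDX6deg occupancy difference and 82 in DDX6deg total RNA, and 2 of the 6 in knockdown P-bodies and 3 in day 3 control minus MEF, while *Fth1* in naive P-bodies and *Ftl1* in primed against naive cytoplasm were lost (adjusted p = 0.0777 and 0.0812). The labels do not say what the numbers mark. Deviations of same-numbered polysome and total libraries correlated at 0.04, 0.20 and −0.003 in control and 0.06, 0.001 and 0.13 in DDX6deg cells, and of same-numbered P-body and cytoplasm libraries at −0.06 (naive) to 0.60 (Ago2 KO), and not every polysome library correlated best with its own number, so the numbers were not taken to pair libraries.

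Leaving out 1 library at a time, called genes ranged from 2056 to 10018 in naive P-bodies (1 to 5 of the 6), 5595 to 9976 in MEF P-bodies, 82 to 8752 in day 3 control P-bodies (0 to 5), 1017 to 5729 in knockdown P-bodies (0 to 3) and 446 to 5617 in Ago2 KO P-bodies (0 to 2). The ranges were 2293 to 7089 for naive minus primed (2 to 5), 259 to 5546 for day 3 control minus MEF (0 to 6), 0 to 2185 for knockdown minus control (0 to 3), 0 to 52 for DDX6deg occupancy (0 to 1), 2242 to 9799 for primed against naive cytoplasm (1 to 5) and 6 to 3373 for DDX6deg total RNA (0 to 4), and 1 to 4 of the 6 for MEF against naive cytoplasm. Calls were also counted over the full iron list of 69 genes, the 6 members included. Of 226 such counts, under other settings or with 1 library left out, 169 stayed within 1.5 times the count of the main fit. With 2 libraries a group the day 3 control and Ago2 KO results are the least settled.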
